A study of Mus musculus with 3 samples.

Results

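The genes described here belong to the mouse MHC, interferon and innate sensing families, and they make up 105 gene symbols in 106 of the 37681 rows of a dentate gyrus RNA-seq table. They were taken by name. All symbols that begin with H2- were included, with B2m, Tap1, Tap2 and Tapbp, the interferon receptors Ifnar1, Ifnar2, Ifngr1 and Ifngr2, the JAK kinases with Tyk2, the STAT and IRF factors, the IFIT effectors, the Toll-like receptors with Myd88, the helicases Ddx58 and Ifih1, and the NLRP genes. A value was present for 104 of these symbols, out of 33101 symbols with a value in all. H2-T9 held none.

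Dentate gyri, the part of the hippocampus that holds the granule cell layer, were dissected from both sides of the brain of male C57BL/6 mice, adults of 8 to 10 weeks. Poly(A) RNA of 3 wild-type biological replicates was sequenced, and the series has no second genotype or treatment. The deposited table gives 1 FPKM value per gene (sequenced fragments, corrected for transcript length and library size) for the whole group, so no spread between the 3 libraries can be attached to any value and no test between genes was possible. Sequencing depth is unknown from these values, and a gene with no signal is therefore called listed at 0 rather than absent. All levels below are FPKM, a scale per transcript length, and all differences are between genes within this tissue. Markers of dentate granule cells were present at 1 FPKM or more for 7 of 7 genes, from Tdo2 at 23.5 to C1ql3 at 102 and C1ql2 at 111 FPKM. In bulk tissue, fewer cells of a type and less RNA per cell cannot be told apart.

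MHC class I molecules carry peptides from inside the cell to its surface. They are built from a polymorphic heavy chain and the invariant light chain beta-2-microglobulin, and are loaded in the endoplasmic reticulum with peptides pumped in by the TAP transporter. MHC class II molecules present peptides from endocytosed material and are typical of professional antigen-presenting cells, in the brain mainly microglia and macrophages when activated. Interferons signal through paired receptors, JAK kinases and STAT factors to raise a large set of antiviral genes, class I genes among them, while Toll-like receptors, RNA helicases and NLRP proteins sense microbial products. In neurons, class I molecules have also been studied for roles at synapses.

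Levels differed by the role of the gene product. The receptor, kinase and STAT genes of the interferon pathway and the 2 classical class I heavy chains lay at several FPKM and more, while most Toll-like receptors, class II genes and non-classical class I genes lay below 1 FPKM and no NLRP gene reached it. At 1 FPKM or more stood 35 of the 104 members (33.7%), beside 39.6% of all symbols with a value. Counting protein-coding genes only, the share was 33 of 97 members (34.0%), beside 56.4% of all protein-coding symbols. At 10 FPKM or more stood 9 members, where the shares were 21.1% of all symbols and 30.8% of protein-coding ones. Listed at 0 were 35 members, beside 40.4% of all symbols and 24.1% of protein-coding symbols, and the other 34 members lay between 0 and 1 FPKM. The median member had 0.118 FPKM, the median of all symbols was 0.0869 and that of protein-coding symbols 2.46. Together the members summed to 294.5 FPKM, which is 0.0644% of the sum over all symbols, and the 5 highest carried 47.1% of it.

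**Figure D1:**
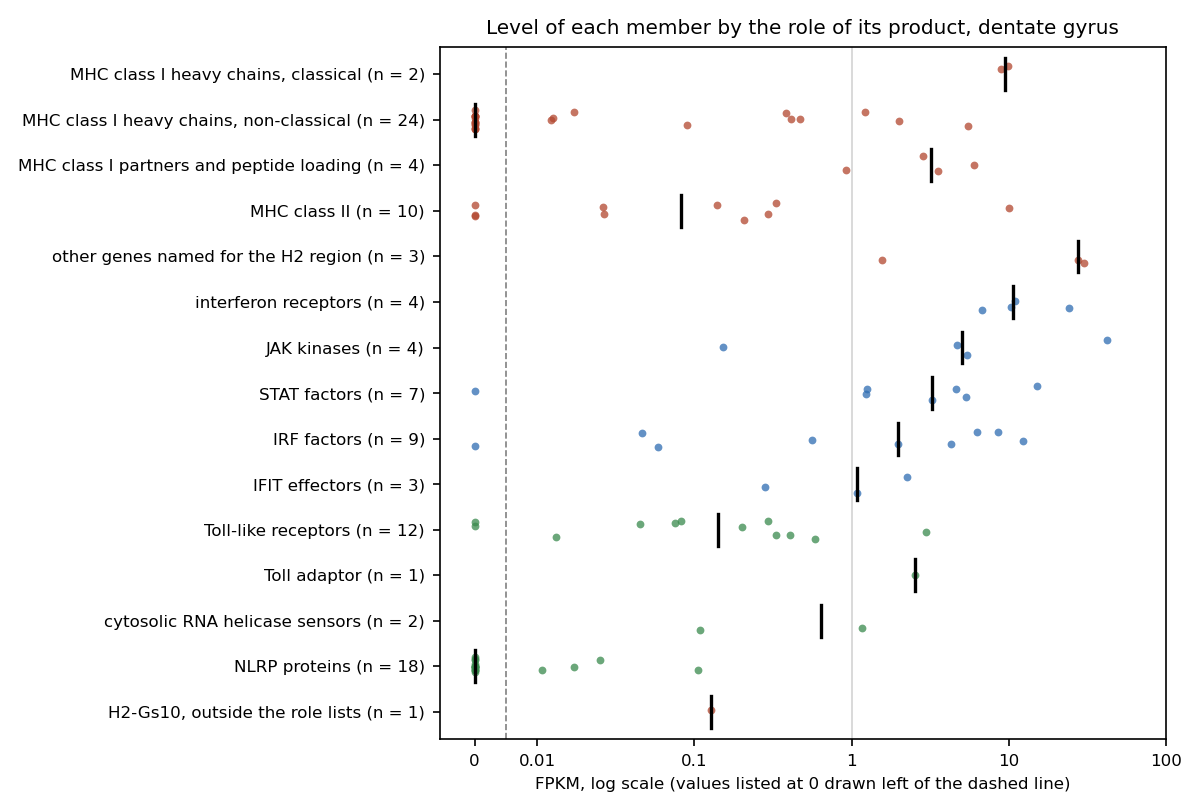
FPKM of each of the 104 members on a log axis, in rows by the role of the gene product, with points for genes and black bars for row medians. Points left of the dashed line are listed at 0 and the grey line marks 1 FPKM. The 4 interferon receptors all lie between 6.78 and 24.2 FPKM, whereas 14 of 18 NLRP genes are listed at 0.

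The plot by role shows rows with a single high gene, such as Jak1, H2-DMa and Tlr3, far from the row's lowest. Among the 8 differences between row medians that were computed, on the log2(FPKM + 0.1) scale, the interferon receptors lay 5.47 above the Toll-like receptors and 5.88 above the class II genes. These differences describe 1 table and carry no error.

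Both classical class I heavy chains, which present peptides to CD8 T cells, were expressed at about the same level. H2-K1 (chr17:34132962-34137234 in mm9, minus strand) had 9.95 FPKM and H2-D1 (chr17:35399675-35404444, plus strand) had 8.90 FPKM, a ratio of 1.12. H2-K1 stood above 69.1% and H2-D1 above 67.2% of protein-coding symbols. The heavy chains share sequence with other class I genes, which limits how reads can be divided. Of all windows of 50 bases in its transcript, 9.07% for H2-K1 and 14.3% for H2-D1 occurred exactly in a gene elsewhere, and 7.17% of the H2-K1 windows occurred in H2-D1.

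The stretches before the RefSeq starts of this pair are shown because much of the sequence is the same. Each line gives the 200 bases before the start, 5′ to 3′ on the gene's strand, in GRCm38.p6 coordinates from RefSeq. Capitals mark the runs of at least 20 bases found without a mismatch in both windows.
H2-K1, chr17:34000334-34000533, minus strand: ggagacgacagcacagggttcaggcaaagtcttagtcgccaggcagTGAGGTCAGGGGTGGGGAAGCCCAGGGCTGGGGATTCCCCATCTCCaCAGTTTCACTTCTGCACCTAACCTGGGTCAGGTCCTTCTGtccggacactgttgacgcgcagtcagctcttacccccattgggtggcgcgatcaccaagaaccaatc
H2-D1, chr17:35262894-35263093, plus strand: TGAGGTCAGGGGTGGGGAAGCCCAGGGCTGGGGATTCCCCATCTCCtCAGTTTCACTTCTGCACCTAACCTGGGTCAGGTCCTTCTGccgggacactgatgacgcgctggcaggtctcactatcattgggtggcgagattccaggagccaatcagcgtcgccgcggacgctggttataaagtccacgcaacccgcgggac
Within these lines, the shared runs were 46 and 40 bases long, 86 of 200 bases in all. The H2-D1 line opens with the first run, so identical sequence farther from the H2-D1 start is not counted. They began 154 and 107 bases before the H2-K1 start and 200 and 153 bases before the H2-D1 start. The H2-K1 positions are counted in its RefSeq window chr17:34000284-34000583. A further H2-K1 window, chr17:34000298-34000597, has another start. The first run contains GGGGATTCCCC, 11 letters known from class I promoters as a binding sequence of NF-kB proteins, 125 bases before the H2-K1 start and 171 before the H2-D1 start. An element of this kind (4 G, then 3 letters that are A or T, then 4 C, which reads as the same kind on the other strand) stood in the 300-base RefSeq windows (250 bases before to 50 after the start) of 3 of 88 members that have a window, the third being H2-Q6 at 0.414 FPKM. Over all genes of the promoter table the share was 27 of 27025, or 0.0999%. The element was searched for after the shared runs had been seen, and a match in sequence is no evidence of binding in this tissue.

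Non-classical class I genes, a large set of heavy chains of lower polymorphism, were mostly at or near 0. Of 24 with a value, 3 reached 1 FPKM and 14 were listed at 0, and the median was 0. H2-T22, whose product is a ligand of gamma delta T cells, had 5.51 FPKM. H2-T23, which encodes the Qa-1 molecule read by NK receptors, had 2.0 FPKM. H2-T10, a polymorphic pseudogene in GENCODE M21, had 1.22 FPKM. The 3 genes lie close together in the T region, and no gene of the Q or M regions reached 1 FPKM. Their division is uncertain: 35.8% of the H2-T22 windows and 31.6% of the H2-T10 windows occurred in another gene, mostly in each other, and 15.0% of those of H2-T23. The transcripts listed beside all 3 values are retained-intron forms in GENCODE M21, and it is unknown whether the value is that of the form or of the gene.

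Below 1 FPKM, H2-M5 had 0.471, H2-Q6 0.414 and H2-M3 0.384 FPKM. H2-M3 presents peptides that begin with N-formylmethionine. H2-M6-ps, a pseudogene, had 0.0900 FPKM, and H2-M10.2 had 0.0172 FPKM. H2-Q8, which the current annotation names H2-Q5 and types as a polymorphic pseudogene, had 0.0126 FPKM. H2-Q2, summed from 2 rows, had 0.0122 FPKM. H2-Gs10, which the current annotation names H2-Q4 and which was in no role list, had 0.128 FPKM. Set against the classical pair, the median of the non-classical genes was lower by 6.57 on the log2(FPKM + 0.1) scale, a size that depends strongly on the pseudocount because the lower median is 0.

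The light chain and the loading machinery were all detected. B2m (chr2:121973422-121978819 in mm9, plus strand), the light chain that every class I complex needs, had 3.53 FPKM. H2-K1 was 2.82 times and H2-D1 2.52 times as high as B2m, so the shared subunit was listed below each of its classical heavy chains. The B2m span overlaps the gene Patl2 on the opposite strand, which was listed at 0, and no B2m window occurred in another gene. Tapbp, which encodes tapasin, the bridge between class I and the transporter, had 5.99 FPKM. That value stands beside a listed transcript of 413 of 2898 nt, and its span shares 1239 nt with Zbtb22 at 8.59 FPKM. The transporter subunits differed, with Tap2 at 2.83 and Tap1 at 0.925 FPKM, so that Tap2 was 3.06 times and Tapbp 6.48 times as high as Tap1. The median of the 4 was 3.18 FPKM.

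Promoters of B2m and H2-T22, which hold the interferon-stimulated response element core, defined here as 2 GAAA blocks 2 bases apart on either strand, are shown for comparison with the classical pair, which holds none in this exact form. The second shared run of that pair has a single block (TTTC, the other strand of GAAA) in a stretch known from class I promoters as an interferon response sequence. The lines give the 200 bases before the RefSeq start as above, and capitals mark the core.
B2m, chr2:122147487-122147686, plus strand: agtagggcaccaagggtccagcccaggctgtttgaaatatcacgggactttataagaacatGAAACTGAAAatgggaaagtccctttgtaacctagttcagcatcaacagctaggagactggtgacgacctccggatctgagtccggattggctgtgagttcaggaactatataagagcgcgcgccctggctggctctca
H2-T22, chr17:36042743-36042942, minus strand: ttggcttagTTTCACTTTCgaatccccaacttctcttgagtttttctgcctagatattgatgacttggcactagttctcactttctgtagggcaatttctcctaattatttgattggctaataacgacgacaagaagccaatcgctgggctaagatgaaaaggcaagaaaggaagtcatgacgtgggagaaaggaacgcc
The core began 139 bases before the B2m start and 191 bases before the H2-T22 start. H2-T23 also held it, 124 bases before its start.

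Other steps of antigen processing ranged from general chaperones at high levels to transactivators near 0. In a list of 17 genes for peptide supply, folding and MHC transcription, 11 reached 1 FPKM and the median was 2.43 FPKM. The general chaperones were highest, with Calr (calreticulin) at 179.6, Canx (calnexin) at 86.1 and Pdia3 at 76.0 FPKM. Ctss, a lysosomal protease of antigen-presenting cells, had 39.4 FPKM, and the proteasome activator subunit Psme1 had 27.1 FPKM while its partner Psme2 had 0.293. Of the immunoproteasome subunits, Psmb10 had 9.91, Psmb8 1.02 and Psmb9 0.498 FPKM. The transactivators named for these families were near 0: Nlrc5, known for class I genes, had 0.0208 FPKM, the lowest of the list, and Ciita, known for class II genes, had 0.0352 FPKM. In a list of 9 genes for receptors that read class I and their signalling, 1 had no value and 6 of the other 8 were listed at 0. The highest, Cd247, which encodes a signalling chain of the T cell receptor and does not itself bind class I, had 0.0783 FPKM.

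Class II genes were low with 1 exception. The median of 10 was 0.0828 FPKM, 3 were listed at 0 (H2-DMb2, H2-Eb2 and the pseudogene H2-Ea-ps), and H2-DMa reached 10.1 FPKM. The chains that form the I-A molecule were nearly equal, with H2-Aa at 0.0261 and H2-Ab1 at 0.0268 FPKM. H2-Eb1, the beta chain of I-E, had 0.329 FPKM, 12.3 times H2-Ab1. The ratio of H2-Ab1 to H2-Eb1, 0.0816, became 0.296 with 0.1 FPKM added to both. Cd74, the invariant chain that accompanies class II through the cell, had 0.0356 FPKM. Thus the presenting chains and their chaperone were all below 1 FPKM in this tissue.

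H2-DMa (chr17:34272127-34276046 in mm9, plus strand) stood apart. Its product pairs with a DM beta chain to exchange class II peptides in endosomes, and H2-DMa was 34.5 times as high as H2-DMb1 at 0.292 FPKM. None of the H2-DMa windows occurred in another gene and its listed transcript is a coding form, whereas 27.2% of the H2-DMb1 windows occurred in H2-DMb2. H2-Oa and H2-Ob, whose products form the DO inhibitor of DM, had 0.207 and 0.139 FPKM. The class I loading group had a median 4.17 higher than the class II genes on the log2(FPKM + 0.1) scale.

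Of the H2- symbols, 3 were set apart as genes named for the region, and H2-Ke2 and H2-Ke6 were among the highest members. H2-Ke2, now named Pfdn6 and encoding a prefoldin subunit that assists protein folding, had 29.9 FPKM. H2-Ke6, now named Hsd17b8 and encoding a steroid dehydrogenase, had 27.4 FPKM. H2-K2, a pseudogene in the current annotation, had 1.57 FPKM, and 16.5% of its windows occurred in other genes. H2-Ke2 and H2-Ke6 share only the prefix with the MHC molecules, and 7.88% of the H2-K2 windows occurred in the class I gene H2-T22.

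**Figure D2:**
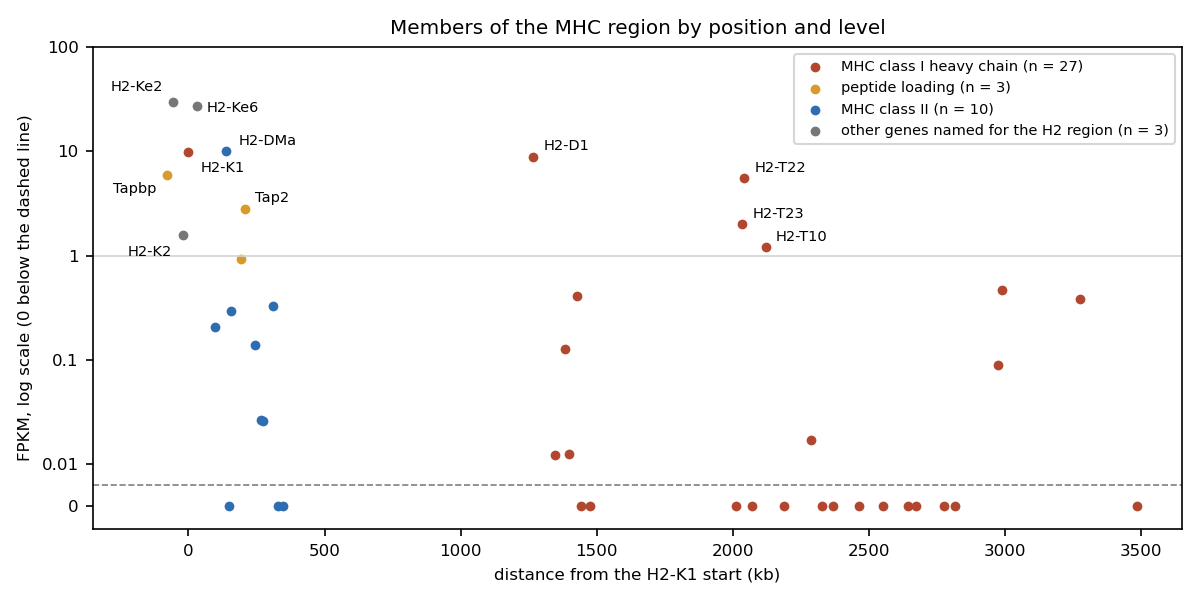
FPKM (log axis) of the 43 members on chromosome 17 against their distance in kb from the H2-K1 start in mm9, coloured by role, with genes listed at 0 below the dashed line and H2-Gs10 drawn among the heavy chains. The 11 members at 1 FPKM or more are named and lie in 3 places: from Tapbp to Tap2 around H2-K1, at H2-D1, and in the T region near H2-T22.

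Position along the MHC is plotted because the class I, class II and loading genes are interleaved there. The members on chromosome 17 span chr17:34052844-37620496 in mm9, or 3568 kb. Of these 43 members, 11 (25.6%) were at 1 FPKM or more and the median was 0.0268 FPKM. The 175 other symbols within the same span had 75 (42.9%) at that level and a median of 0.219 FPKM. Among them, the 130 protein-coding symbols had 70 (53.8%) at that level and a median of 1.84 FPKM. Neighbours could differ widely: H2-DMa at 10.1 FPKM starts 139 kb from the H2-K1 start and H2-DMb2, listed at 0, starts at 147 kb. The transcript listed for H2-DMb2 is a retained-intron form of 522 nt, where the longest coding form has 1483 nt. Farther from H2-K1 than H2-T10, the highest class I gene was H2-M5.

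All 4 interferon receptor chains were expressed. Ifnar1 had 11 and Ifnar2 10.3 FPKM, a ratio of 1.07 between the chains of the type I receptor. The chains of the interferon gamma receptor were less even, with Ifngr2 (chr16:91547317-91565414 in mm9, plus strand), the signalling chain, at 24.2 FPKM and Ifngr1, the ligand-binding chain, at 6.78 FPKM, a ratio of 3.58. Ifnar1 was 1.62 times as high as Ifngr1. Ifngr2 stood above 84.5% of protein-coding symbols. In contrast, each of the 9 interferon ligand genes with a value, including Ifnb1 and Ifng, was listed at 0.

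Kinases of the pathway were led by Jak1 (chr4:100824972-100937887 in mm9, minus strand), which serves both interferon receptors and many cytokine receptors. It was the highest of all members at 42.2 FPKM and stood above 91.9% of protein-coding symbols. Jak2, the partner of Ifngr2, had 5.46 FPKM, and Tyk2, the partner of Ifnar1, had 4.67 FPKM. Jak1 was 7.73 times Jak2 and 9.03 times Tyk2. Jak3, which acts with the common gamma chain of lymphocyte receptors, had 0.153 FPKM, so that Jak1 was 276 times as high, or 167 times with 0.1 FPKM added to both. The T and NK cell markers that were looked up lay near 0, with 7 of 9 listed at 0 and the highest, Trac, at 0.0365 FPKM.

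Of 7 STAT factors, 6 reached 1 FPKM. Stat3 (chr11:100746412-100800718 in mm9, minus strand), the factor of the interleukin-6 family of cytokines, was highest at 15.1 FPKM. Stat2, which binds Irf9 in the response to type I interferon, had 5.34 FPKM, and Irf9 had 4.27 FPKM. Stat5b had 3.27 and Stat5a 1.23 FPKM, and these paralogs share 11.8% and 15.8% of their windows with each other. Stat6, the interleukin-4 factor, had 1.26 FPKM and shares 40 nt of span with Nab2 at 17.6 FPKM. Stat4, the interleukin-12 factor of lymphocytes, was listed at 0. Among 16 inhibitors of the pathway, 12 reached 1 FPKM with a median of 6.37, led by the phosphatase Ptpn11 at 35.2 and Socs5 at 27.7 FPKM. The inducible inhibitors Socs1 at 0.361 and Socs3 at 0.281 FPKM were lower, and Socs2 was listed at 0.

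IRF factors were divided between expressed and low genes, with 5 of 9 at 1 FPKM or more and a median of 1.97. Irf3 (chr7:52253018-52258218 in mm9, plus strand), the constitutive factor that is activated by phosphorylation after RNA or DNA sensing, had 12.3 FPKM. Irf7, its interferon-inducible relative, had 0.562 FPKM, a ratio of 21.9 between them. Irf2 had 8.58 and Irf1 6.27 FPKM, a ratio of 1.37. Irf2 is known as an antagonist of Irf1. Irf5 had 1.97 FPKM and shares 1043 nt of span with Tnpo3 at 22.8 FPKM on the opposite strand, and Irf1 shares 907 nt with Gm17334 at 1.83 FPKM. No strand-marking step appears in the library protocol, so such reads cannot be told apart.

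Factors tied to particular lineages were the low ones. Irf4, known from lymphocytes, was listed at 0. Irf8, a factor of macrophages and microglia, had 0.0589 FPKM, and Irf9 was 72.5 times as high, or 27.5 times with 0.1 FPKM added to both. The whole Irf8 span, 20337 nt, lies within that of another row on the same strand, AC114005.5, which holds no value. A row without a value on the same strand, RP23-222K15.15, also shares 2023 nt with H2-Ke6 at 27.4 FPKM. The part of AC114005.5 in the Irf8 value was not tested. Microglial markers were nevertheless present, as all 12 looked up reached 1 FPKM, the lowest being Aif1 at 3.51 FPKM and C1qb among the highest at 38.9 FPKM, with a median of 20.5. The STAT median, 3.27 FPKM, exceeded the IRF median by 0.71 on the log2(FPKM + 0.1) scale. With only the members whose listed transcript is a coding form of at least 0.5 of the longest, the difference was -0.44, so no order between these families is given.

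IFIT effectors, proteins that bind foreign RNA and are among the genes most strongly raised by interferon, were low. Ifit3 had 2.25, Ifit2 1.08 and Ifit1 0.283 FPKM, so Ifit3 was 7.96 times and Ifit2 3.82 times as high as Ifit1. For Ifit3, 51.2% of windows occurred in the paralog Ifit3b, and the listed Ifit2 transcript has 700 of 3818 nt. A list of 27 further interferon-stimulated genes had a median of 0.0643 FPKM, with 7 at 1 FPKM or more and 5 listed at 0. The highest were Adar, an RNA-editing enzyme, at 31.4 FPKM and Ifi27l1 at 12.7 FPKM. The membrane proteins Ifitm2, Ifitm3, Bst2 and Ifitm1 followed at 7.25, 5.35, 2.34 and 2.10 FPKM, and Ifi35 had 1.07 FPKM. Isg15 had 0.732 FPKM, Usp18 0.0643 and Mx1 0.0132 FPKM. Measured by medians, the STAT factors lay 4.36 above this list on the log2(FPKM + 0.1) scale.

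Promoters of 2 IFIT genes and Irf1 are shown because they carry the motif cores of both branches of interferon signalling. Capitals mark the response element core in the IFIT genes and, in Irf1, the gamma-activated site core TTCNNNGAA, the letters bound by STAT dimers. The lines again hold the 200 bases before the RefSeq start in GRCm38.p6.
Ifit1, chr19:34640689-34640888, plus strand: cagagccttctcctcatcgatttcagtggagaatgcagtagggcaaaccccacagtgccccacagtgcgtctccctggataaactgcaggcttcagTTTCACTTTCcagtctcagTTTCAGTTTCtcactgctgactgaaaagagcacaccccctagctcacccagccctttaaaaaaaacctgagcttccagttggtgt
Ifit3, chr19:34583329-34583528, plus strand: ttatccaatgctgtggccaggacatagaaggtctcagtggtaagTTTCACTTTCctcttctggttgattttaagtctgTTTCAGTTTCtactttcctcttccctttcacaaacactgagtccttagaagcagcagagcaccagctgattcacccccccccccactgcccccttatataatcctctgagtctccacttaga
Irf1, chr11:53769814-53770013, plus strand: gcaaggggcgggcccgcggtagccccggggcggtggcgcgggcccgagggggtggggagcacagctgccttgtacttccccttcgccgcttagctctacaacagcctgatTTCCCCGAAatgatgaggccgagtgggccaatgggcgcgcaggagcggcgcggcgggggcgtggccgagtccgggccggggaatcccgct
Ifit1 held the response element core 104 and 85 bases before its start, and Ifit3 held it 156 and 122 bases before. Irf1 held the gamma-activated site core 90 bases before the start of the first of its RefSeq windows. Both hold 2 response element cores, and they were the lowest and the highest of the 3 IFIT genes.

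**Figure D3:**
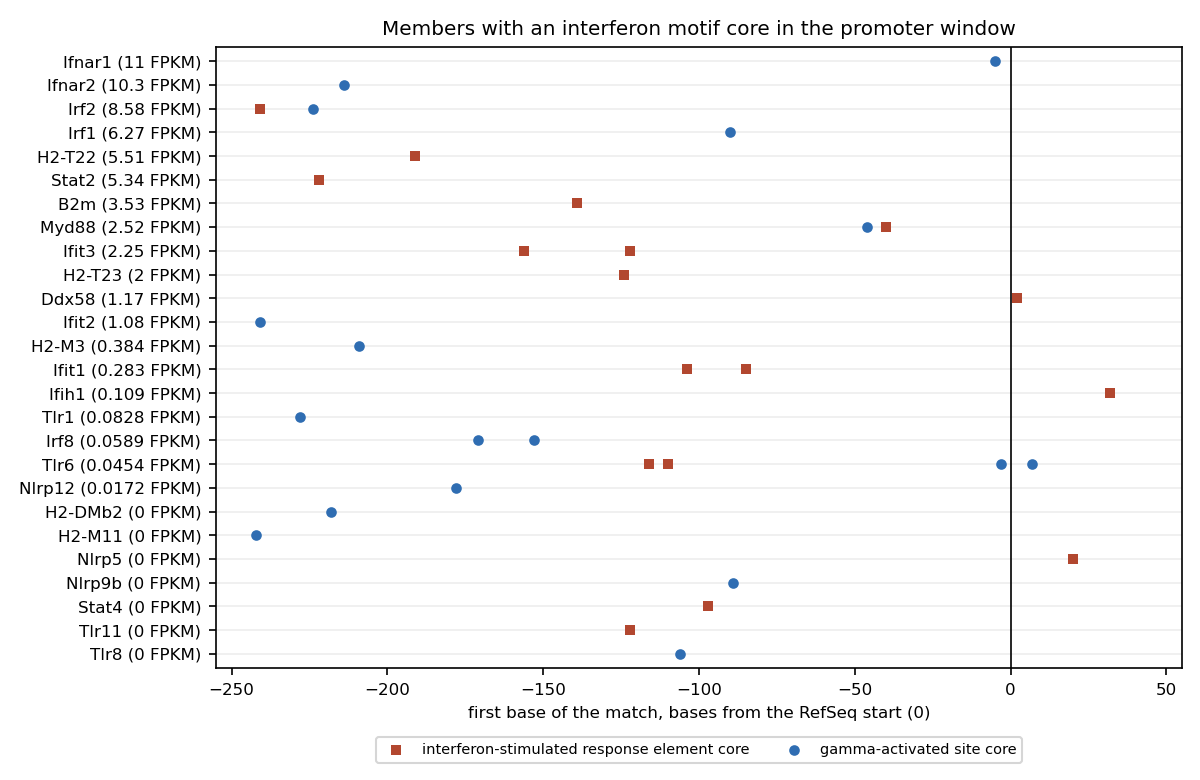
Position of each match to the interferon-stimulated response element core (squares) or the gamma-activated site core (circles) in bases from the RefSeq start (vertical line at 0), for the members with a match, ordered by FPKM, which stands in parentheses. Members on both sides of 1 FPKM hold the cores: 8 of the 14 with the response element core and 6 of the 15 with the gamma-activated site core are at 1 FPKM or more.

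The motif plot covers the 88 members that could be matched to a RefSeq window by name, in 106 windows. The response element core was found in 14 of these 88 (15.9%), beside 3.99% of all 27025 genes in the promoter table. The gamma-activated site core was found in 15 (17%), beside 9.55% of all genes. Members at 1 FPKM or more held the response element core in 8 of 31 cases (25.8%), and members below that level in 6 of 57 (10.5%). The share over all genes was not split by level. Among the 31, the median was 3.02 FPKM with the core and 6.78 without it, and among the 57 it was 0.0227 with the core and 0 without it. The response element core was in the windows of Irf2, Stat2, Myd88 and Ddx58 as well as B2m and H2-T22, and also in Stat4 and Tlr11, both listed at 0. No JAK gene held either core, nor did H2-K1 or H2-D1. Absence says only that these letters are not in the window, and a match is a description of sequence, not a site shown to be used.

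Toll-like receptors were low with the exception of Tlr3. Of 12 receptors, 1 reached 1 FPKM, 9 lay between 0 and 1 and 2 were listed at 0 (Tlr8 and Tlr11), and the median was 0.142 FPKM. Tlr3 (chr8:46481019-46495893 in mm9, minus strand), the endosomal receptor for double-stranded RNA that signals without Myd88, had 2.97 FPKM. Tlr4, the receptor for lipopolysaccharide, had 0.332 FPKM, so Tlr3 was 8.97 times as high. The listed Tlr4 transcript has 1866 of 4077 nt. Tlr13, a receptor for bacterial ribosomal RNA, had 0.589 FPKM beside a listed retained-intron transcript of 337 nt.

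Tlr9 for DNA and Tlr7 for single-stranded RNA, which are also endosomal receptors, had 0.293 and 0.202 FPKM, a ratio of 1.45. Tlr2, which pairs with Tlr1 or Tlr6 to read lipopeptides, had 0.408 FPKM. Its partners were lower, with Tlr1 at 0.0828 and Tlr6 at 0.0454 FPKM, and Tlr2 was 4.93 times as high as Tlr1, or 2.78 times with 0.1 FPKM added to both. The partners resemble each other, since 16.6% of the Tlr1 windows occurred in another gene, mainly Tlr6. Tlr12 had 0.0758 and Tlr5, the flagellin receptor, 0.0132 FPKM.

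Downstream of the receptors, levels were higher. Myd88, the adaptor of most Toll-like receptors and of the interleukin-1 receptor family, had 2.52 FPKM. In a list of 20 further adaptors, kinases and transcription factors, 14 reached 1 FPKM and the median was 3.06 FPKM, which lay 3.70 above the receptors on the log2(FPKM + 0.1) scale. Irak1 at 24.4 and Tab2 at 18 FPKM were highest. Ticam1, the adaptor of Tlr3, had 2.21 FPKM and Traf3, which acts after it, 11.7 FPKM. Irak4, Tirap and Unc93b1 were listed at 0. Unc93b1 escorts endosomal Toll-like receptors, Tlr3 among them, and Irak4 is the kinase that Myd88 recruits first. For these and all other genes listed at 0, whether the 0 is a failed estimate was not tested.

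Cytosolic RNA sensors were low, with a median of 0.639 FPKM for the pair. Ddx58, which encodes RIG-I, had 1.17 FPKM beside a listed non-coding transcript of 386 nt, where the longest coding form has 3874 nt. Ifih1, which encodes MDA5, had 0.109 FPKM, so Ddx58 was 10.7 times as high. The ratio of Ifih1 to Ddx58, 0.0930, became 0.164 with 0.1 FPKM added to both. In a list of 10 other genes of cytosolic RNA and DNA sensing, 4 reached 1 FPKM and the median was 0.764 FPKM. The shared kinase Tbk1 had 12.4 FPKM, the nuclease Trex1 4.52 and the adaptor Mavs 3.13 FPKM. Tmem173, which encodes STING, had 2.03 FPKM, while Trim25 had 0.898, the kinase Ikbke 0.108 and the sensor Zbp1, the lowest, 0.0147 FPKM. Irf3, on which Tbk1 acts, had 12.3 FPKM, close to Tbk1.

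NLRP genes were the lowest role group. None of 18 reached 1 FPKM, 14 were listed at 0 and 4 had low values, so the median was 0. Nlrp6 was highest at 0.106 FPKM, followed by Nlrp1a at 0.0253, Nlrp12 at 0.0172 and Nlrp1b at 0.0108 FPKM. Nlrp3, which forms the inflammasome of macrophages and microglia, was listed at 0, so no ratio to Nlrp1a is given. Several of the others, such as Nlrp5 and Nlrp14, are known from oocytes and germ cells. On the log2(FPKM + 0.1) scale the Toll-like receptor median lay 1.28 above the NLRP median.

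Inflammasome partners were low as well, with a median of 0.108 FPKM and 2 of 11 at 1 FPKM or more. Il18, a cytokine processed by caspase-1, had 15.3 FPKM and the ATP-gated channel P2rx7 had 1.62 FPKM. Pycard, the adaptor ASC, had 0.661 FPKM and Casp1 had 0.420 FPKM. Il1b had 0.0394 FPKM and Naip2 was listed at 0. Il18 thus stood far above Il1b and above the sensors and adaptor that lead to its processing.

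**Figure D4:**
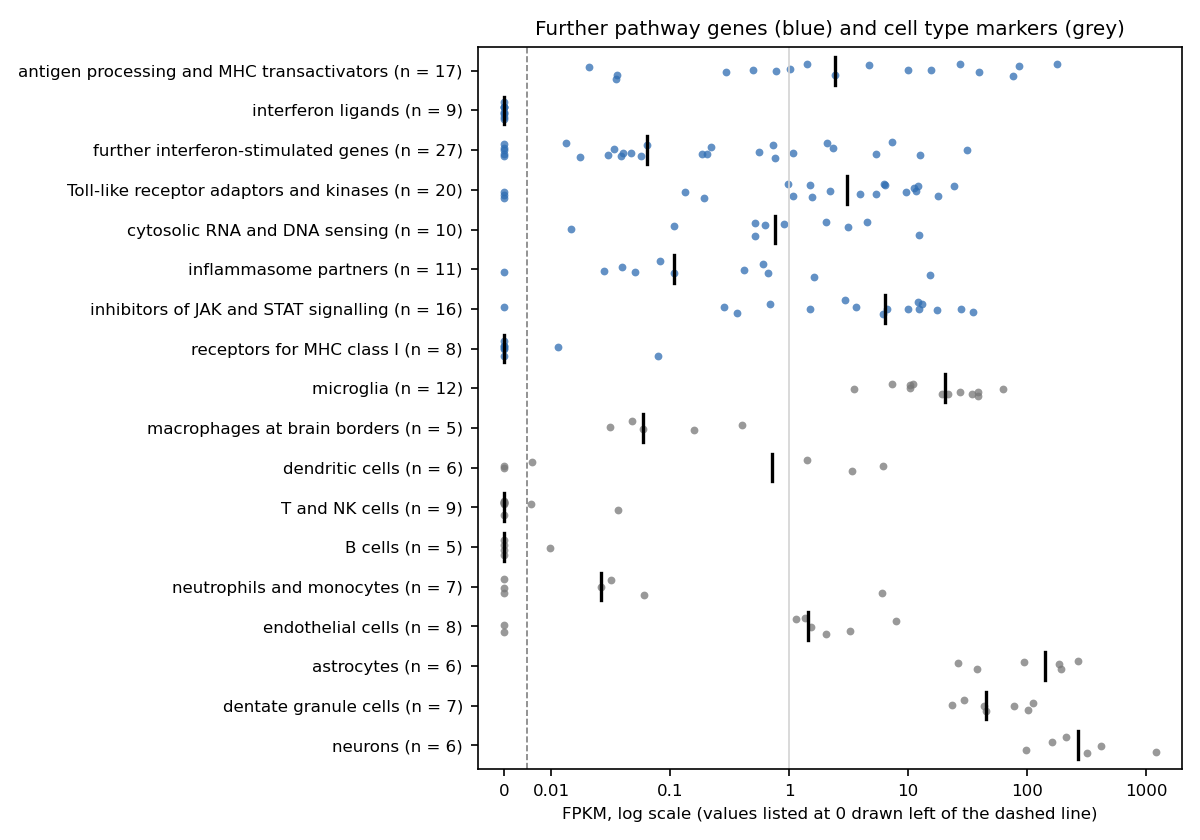
FPKM (log axis) of the pathway genes named beside the members (blue) and of cell type markers (grey), in rows by list, with points for genes and black bars for row medians. The 9 interferon ligands are listed at 0, the microglial markers all lie at 3.51 FPKM or more, and the T cell, NK cell and B cell markers lie below 0.1 FPKM.

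The lists in the plot of pathway genes and markers show which other cells could be in the tissue. Astrocyte markers had a median of 140.1 FPKM and neuronal markers 264.8 FPKM. Endothelial markers reached 1 FPKM for 6 of 8 genes, with Cldn5 highest at 7.96 and Esam at 3.22 FPKM, while Pecam1 and Vwf were listed at 0. Markers of macrophages at the brain's borders reached it for 0 of 5, the highest being Mrc1 at 0.401 and Pf4 at 0.159 FPKM and the lowest Cd163 at 0.0314 FPKM. Of 6 dendritic cell markers, 3 reached it (Siglech at 6.12, Flt3 at 3.39 and Zbtb46 at 1.42 FPKM), and Itgax and Ccr7 were listed at 0. Siglech is also known from microglia. Of 7 neutrophil and monocyte markers only Ly6c2, at 6.05 FPKM, reached it, Mpo had 0.0600 FPKM, and Ccr2, Elane and Ly6g were listed at 0. B cell markers were listed at 0 for 4 of 5, with Cd79a at 0.00974 FPKM. The part of each cell type in the members' levels was not tested.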

How the data were processed

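Dentate gyri were micro-dissected from adult male wild-type mice, and their poly(A) RNA was copied from random primers for Illumina HiSeq sequencing, per the labels' protocols. The submitters' processing notes name TopHat, Cufflinks, mm9 and NCBIM37, without versions. How the 3 libraries were joined, the read length and the strand setting are not stated there or in the labels. Values are FPKM, as deposited by the authors in 1 column for the whole group. Of the rows, 1212 held no value and were left out. No test, error, interval or detection limit can be computed from 1 value per gene, and depth is unknown.

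Members were matched by symbol, and rows sharing a symbol were summed (1 member). Starts were made 1-based. Gene and transcript types came from GENCODE M21 by Ensembl identifier. That gave a gene for 104 members and the listed transcript for 94. Of the 35 members at 1 FPKM or more, 34 had their listed transcript there; 5 were non-coding forms and 2 were coding but shorter than 0.5 of the longest. Spans of 29 members overlap another row. Promoter windows and their coordinates are RefSeq's, in GRCm38.p6. Of 104 members, 88 matched a window, 18 of them more than 1.

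The members, gene lists, pairs and alternatives were chosen with earlier results of these data known. The rule named each member at 1 FPKM or more, the ends of each role group, the 2 highest and the lowest gene of each list, the genes of 27 pairs, and members below 1 FPKM where 12 or fewer. Genes named beyond it (such as Psme2, Socs1, Isg15, Ticam1, Pycard and Unc93b1) were chosen after their values were seen, as were the 8 differences of medians, the shared promoter runs, the NF-kB element and the windows of 50 bases. These windows, exact matches between M21 transcripts of genes at separate places, replaced a planned protein comparison that could not be run. They covered 102 members, of which 53 shared none and 20 shared 10% or more. The search for the response element core, the window count and the list summary were tested on simulated data. The searches for the gamma-activated site core and the NF-kB element were not. Alternatives changed the pseudocount (0.1 to 1 or 0.01), the minimum FPKM, the row handling, the list summary, genes listed at 0 and the members counted. Scripts ran in Python 3.11.15 (numpy 2.4.6, pandas 2.3.3, matplotlib 3.10.9). Some genes that the rule names are not reported.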

Additional observations from a re-analysis of the deposited data

How the results depend on the processing

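Each setting was changed alone, and a value was taken to hold when it stayed within 1.5 times. The count of 35 members at 1 FPKM or more held under 5 alternatives: 38 at a minimum of 0.5 FPKM, 27 at 2 FPKM, 35 with the highest row, 33 with protein-coding members and, chosen after the data were seen, 27 without members that share 10% or more of their windows. The median of all members was 1.08 FPKM without genes listed at 0. Without them, medians were 0.399 for non-classical class I, 0.207 for class II, 3.12 for IRF, 0.248 for Toll-like receptors and 0.0212 for NLRP genes. As a mean of log2 values, they were 0.0919 for non-classical class I, 0.169 for class II, 11 for other H2-region genes, 2.08 for STAT, 1.18 for IRF, 0.415 for the helicases and 0.00694 for NLRP genes. In all, 27 of 39 role-median alternatives held and 12 moved, and 3 of 7 pathway-list medians held without genes listed at 0. Many of those that held could not change. Only 1 member was summed from more than 1 row, and groups or lists with no gene listed at 0 had none to leave out. Of 32 alternatives for the 8 log2 differences, 9 held, 22 moved and 1 reversed. Pseudocounts of 1 and 0.01 gave 3.35 and 6.13 for interferon minus Toll-like receptors, 3.43 and 6.84 for interferon receptors minus class II, 3.38 and 9.88 for classical minus non-classical class I, and 1.95 and 5.10 for loading genes minus class II. They gave 2.0 and 5.46 for STAT minus interferon-stimulated genes, 1.83 and 4.33 for Toll adaptors minus receptors, and 0.19 and 3.93 for Toll-like receptors minus NLRP. Leaving out genes listed at 0 gave 5.13, 4.25, 3.42 and 3.70 for interferon receptors minus class II, classical minus non-classical, loading minus class II and STAT minus interferon-stimulated genes. Using only listed coding forms of at least 0.5 of the longest gave 5.13, 3.26, 2.89 and 4.43 for interferon receptors minus class II, loading minus class II, STAT minus interferon-stimulated genes and Toll adaptors minus receptors, and reversed STAT minus IRF to -0.44; these lists hold fewer genes. Of 52 ratio alternatives, 47 held and 5 moved, all toward 1 with 0.1 FPKM added to both genes. The highest-row alternative of each of the 26 ratios could not change it, because H2-Q2, the summed member, is in no pair. No paired analysis was possible because the table gives 1 value for the whole group, and leaving out a library was not possible for the same reason. Depth, and so the precision of the low values, is unknown.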

Other observations

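A few members differed widely from genes whose products act with theirs or in the same cells. H2-DMa had 10.1 FPKM while H2-DMb1 had 0.292 and Cd74 0.0356 FPKM. B2m had 3.53 FPKM, below H2-K1 at 9.95 and H2-D1 at 8.90 FPKM, although each surface class I complex is known to need 1 B2m chain. Irf8 had 0.0589 FPKM while the microglial marker Csf1r had 34.1 and Cx3cr1 10.9 FPKM. Another row without a value, AC114005.5, covers the whole Irf8 span on the same strand, but such a row also shares 2023 nt with H2-Ke6 at 27.4 FPKM. Tlr3 had 2.97 FPKM while Unc93b1, known to escort it, was listed at 0. The listed transcripts of H2-DMa, B2m and Tlr3 are coding forms. The causes were not tested.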
